A study of Homo sapiens with 4 samples.

Results

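Circular RNA from the ubiquitin-specific protease (USP) genes was examined in radiation-resistant breast cancer cells with and without knockdown of the splicing regulator HNRNPL. A circle was counted as a USP circle when its row in the table was not labelled antisense and named a gene whose symbol is USP followed by digits, with an optional final letter. Of 211599 rows, 2325 met this rule (1844 exon and 481 intron circles). They named 41 USP genes, and 2143 of them had at least 1 count. These circles held 18978 of 1702290 counts. No row named 2 USP genes, and 142 rows named another gene as well, with 3.61% of the family's counts. All 41 symbols matched the RefSeq gene table, and 97.8% of the circles with a count lay inside the span of their gene there.

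All 4 libraries came from MDA-MB-468, an established human triple-negative breast cancer line, in a derivative made resistant with a total of 50 Gy of fractionated radiation. The 2 control libraries carried a control short hairpin (shCtrl, genotype WT) and the 2 knockdown libraries a stable hairpin against HNRNPL (shHNRNPL-1, genotype HNRNPL knockdown). Only 1 hairpin line was used, no unirradiated cells were included, and no row examined here named HNRNPL, so the knockdown rests on the labels. Total RNA was copied from random hexamers by the Induro reverse transcriptase, which can run around a circular template repeatedly, then amplified with phi29 polymerase and read on a nanopore sequencer.

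USPs are cysteine proteases that cut ubiquitin from proteins and so reverse the work of ubiquitin ligases. They form the largest family of human deubiquitinases, and members act in DNA repair, at the proteasome, on histones, on membrane receptors and in TGF-beta signalling. Exons of many such genes are also joined backwards by the spliceosome, the end of a downstream exon (the donor) to the start of an upstream one (the acceptor), which closes a circle. HNRNPL is an RNA-binding protein that acts on the choice of splice sites.

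Library totals were 472428 (control replicate 1), 556578 (control replicate 2), 282737 (knockdown replicate 1) and 390547 (knockdown replicate 2). Where a library shows 0, up to 3 counts remain possible, or between 0.539 and 1.06 per 100000 library counts, and such floors cover counting error only. Control replicate 1 stood apart. Intron circles held 17% of its USP counts, against 5.55% to 6.62% in the other 3 libraries, and 62.6% of its USP counts came from circles with AG-GT ends free of the caller's asterisk, a mark whose meaning is not given in the sources used here, against 83.7% to 85.7% elsewhere. It also held 478 USP circles seen in no other library, 9 of them with at least 10 counts. Over all circles the same library again had the highest intron share, 21.7% against 10.4% to 11.1%. The part of this difference in the results below was not tested. Circular counts of epithelial genes were found for 5 of 8 markers, and their summed level was 130 and 87.3 per 100000 in the controls against 60.5 and 56.8 in the knockdowns. None of the 5 passed in edgeR's test and 1 had an unadjusted p under 0.05: EGFR had 115, 52, 12 and 21 counts (log2 fold change -1.42) in control replicates 1 and 2 and knockdown replicates 1 and 2, the order used for counts from here on. GRHL2 (417, 372, 125 and 157) and EPCAM (35, 38, 15 and 20) gave -0.56 and -0.14, and CDH1 (13, 14, 9 and 6) and ESRP1 (35, 10, 10 and 18) gave 0.12 and 0.22. The part of these markers in the results was not tested. No row named any of 5 blood and immune or 6 fibroblast and endothelial markers. In such bulk libraries fewer cells with a circle and less of the circle per cell cannot be told apart, and linear RNA of the host genes was not measured here.

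The family as a whole made up 0.857% and 1.13% of all counts in the controls against 1.26% and 1.30% in the knockdowns. Both knockdown shares were above both control shares, a ratio of 1.29. A large part of this difference lay in USP25, at 64.6 and 194 per 100000 in the controls against 348 and 361 in the knockdowns. With USP25 left out, the shares overlapped between groups. The exact two-sided permutation test over the 4 libraries gave p = 0.33, the smallest value that 2 against 2 can give. At the depth of the smallest library, 282737 counts, 894 and 827 distinct USP circles were expected in the controls against 865 and 866 in the knockdowns. The groups overlapped (exact permutation p = 1.0).

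Counts were spread unevenly over the genes. USP25, USP34, USP14 and USP45 held 52.4% of the family's counts, and the 12 genes with the most counts held 82.3%. These shares are of counts and are not corrected for the length of a gene or circle. At the other end, USP44, USP18, USP2, USP11, USP20, USP30 and USP26 had between 1 and 6 counts over the 4 libraries and were not tested.

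**Figure D1:**
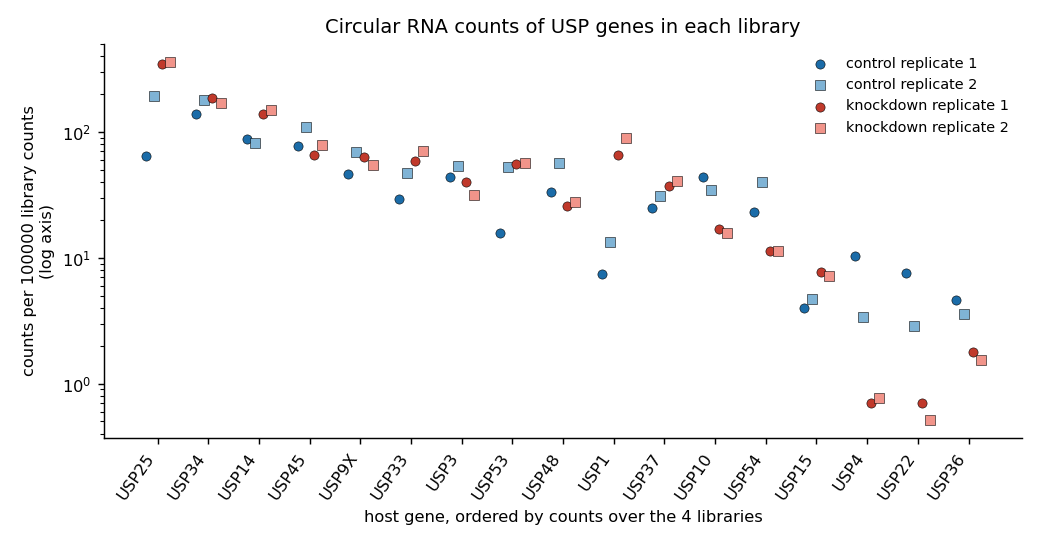
Circular RNA counts per 100000 library counts (log axis) of the 17 USP genes named by rule, ordered by their counts, with 1 point per library. USP1 shows both knockdown libraries (65.8 and 88.8) well above both controls (7.41 and 13.3), while USP4, USP22, USP10 and USP54 show the opposite order.

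Summed over its circles, 1 of 34 tested USP genes passed the threshold, set at 0.05 for the adjusted p from edgeR's quasi-likelihood test with Benjamini-Hochberg adjustment over all host genes. Over all 8379 host genes, 37 passed, or 0.442%. At an unadjusted p under 0.05, 5 USP genes were higher (14.7%, against 7.58% of all host genes) and 4 lower (11.8%, against 6.19%). The knockdown libraries lay above both controls for 8 USP genes (23.5%, against 15.3% of all host genes) and below both for 14 (41.2%, against 36.7%). The median log2 fold change, knockdown over control, was -0.12 over the USP genes and -0.26 over all host genes. With library-size scaling in place of TMM these medians were -0.42 and -0.58. Of the 34 genes, 13 had a positive and 18 a negative log2 fold change in both scalings, and the sign differed for 3.

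**Figure D2:**
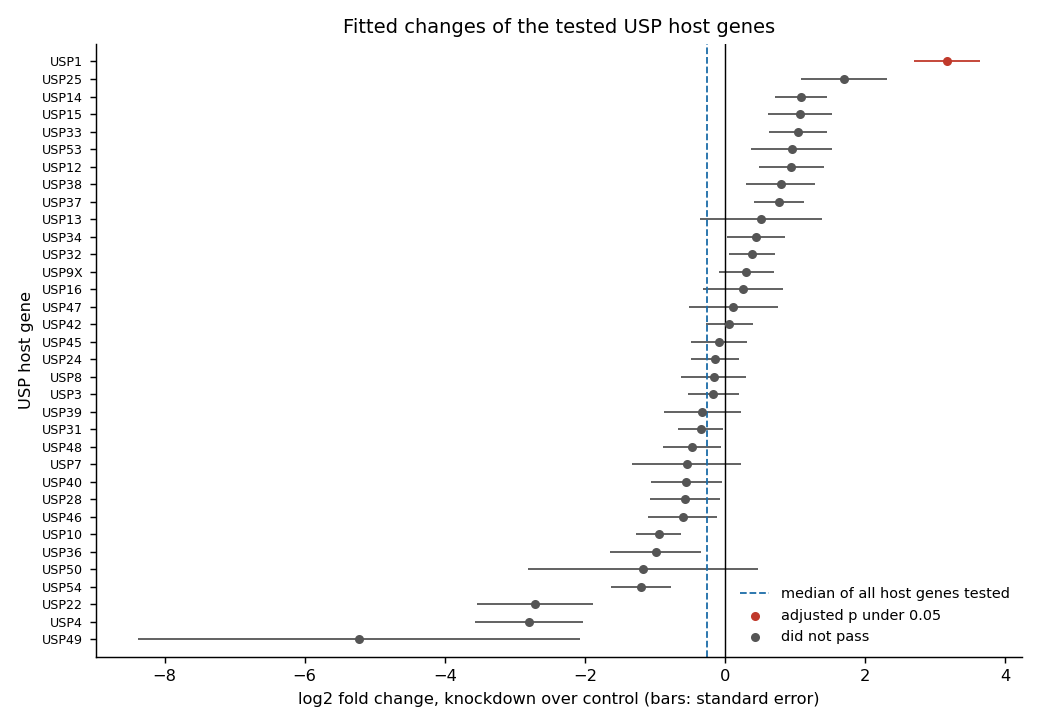
Log2 fold changes, knockdown over control, of the 34 tested USP host genes with their standard errors; the dashed line is the median of all host genes tested (-0.26). USP1, in red, was the gene that passed the adjusted threshold, and the wide bar of USP49 belongs to a gene with 12 counts in control replicate 1 and 0 in the other libraries.

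Among the USPs of DNA repair, USP1 rose. USP1 works with its partner WDR48 to remove ubiquitin from FANCD2 and PCNA, and lies at chr1:62436395-62451804 on the plus strand (GRCh38.p14). Its circles had 35 and 74 counts in the controls against 186 and 347 in the knockdowns, or 7.41, 13.3, 65.8 and 88.8 per 100000. Every knockdown value was above every control value, and the group means were 10.4 ± 4.16 and 77.3 ± 16.3 (SD, n = 2 each), a ratio of 7.47. The log2 fold change was 3.17 with a standard error of 0.47 (edgeR quasi-likelihood adjusted p = 0.0413). It passed in 15 of the 18 settings tried. It did not pass with the newer dispersion method of edgeR (adjusted p = 0.0924), without knockdown replicate 1 (0.595) or without knockdown replicate 2 (0.919), with log2 fold changes of 3.18, 3.42 and 2.92.

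The rise was spread over the gene. All 15 tested USP1 circles had a positive log2 fold change, and in 14 of them (93.3%, against 23.2% of all circles tested) both knockdown values were above both controls. Lengths and blocks of circles are those of the first isoform listed, and a count pools all isoforms of its row. The circle with the most counts, chr1:62443159-62448666, joins 4 exon blocks into 1226 nt and had 8, 17, 28 and 52 counts in control replicates 1 and 2 and knockdown replicates 1 and 2. It was higher in the knockdowns without overlap, with a log2 fold change of 2.25 ± 0.44 (SE). A larger difference was seen for chr1:62439799-62443319, a 626-nt circle of 4 blocks, with 0, 3, 37 and 57 counts and a log2 fold change of 5.44 ± 0.76 (edgeR adjusted p = 0.0949). The 863-nt circle chr1:62444738-62447511 had 0, 3, 23 and 41 counts. These last circles were at or near 0 in both controls, so their ratios rest on at most 3 control counts. Without control replicate 1 their log2 fold changes were 4.77 and 4.22, against 8.67 and 8.11 when control replicate 2 was left out instead.

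Sorted by acceptor, the USP1 circles differed in size of change. Circles with the acceptor at 62439799 had 2, 14, 64 and 116 counts, a ratio of group levels of 17.8, and those at 62444738 had 1, 8, 47 and 73, a ratio of 21.4. Circles with the acceptor at 62443159 had 16, 35, 52 and 98 counts, a ratio of 4.49. All of these sites had no overlap between groups. The share of USP1 counts from the acceptor at 62443159 was 45.7% and 47.3% in the controls against 28.0% and 28.2% in the knockdowns. The test for unequal use of the USP1 circles gave an edgeR adjusted p of 0.146 and did not pass.

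The other repair genes gave values on both sides. Of 13 genes on this list 10 were tested, and besides USP1 none passed; 3 log2 fold changes were above 0 and 7 below. USP45, which acts on the XPF-ERCC1 nuclease, had 365, 612, 184 and 309 counts, and its levels per 100000 overlapped between groups. Its main circle did not overlap. That circle, chr6:99439769-99465136 (1053 nt, 5 blocks), held 49.6% of the gene's counts, with 189 and 353 counts in the controls against 78 and 109 in the knockdowns, and means of 51.7 ± 16.6 and 27.7 ± 0.228 per 100000 (log2 fold change -0.93 ± 0.32, edgeR adjusted p = 0.289). The remaining 62 USP45 circles had means of 41.9 ± 6.56 and 44.4 ± 9.70 per 100000. USP48, a histone H2A deubiquitinase of DNA repair, had 158, 314, 73 and 108 counts (log2 fold change -0.47 ± 0.41), and 10 of its 17 tested circles (58.8%, against 22.9% of all circles) were below both controls in both knockdowns. Without control replicate 2 the USP48 log2 fold change turned to 0.25. Its commonest circle, chr1:21680808-21724095, had 15, 43, 6 and 12 counts, and its 1484-nt circle chr1:21715389-21753119 had 6, 16, 0 and 1 counts. USP3, another H2A deubiquitinase, had 209, 301, 114 and 123 counts, with 22, 56, 15 and 23 in its commonest circle, chr15:63532647-63563008. Its levels, 44.2, 54.1, 40.3 and 31.5 per 100000, were lower in both knockdowns. The log2 fold change of the sum was -0.17 ± 0.36, or -0.46 with library-size scaling. Without control replicate 2 the sum turned to 0.26 and that circle to 0.12.

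USP14, the deubiquitinase that docks on the proteasome and trims ubiquitin chains from arriving proteins, passed a test for unequal use of its circles in the main fit. The gene lies at chr18:158557-214629 on the plus strand. Its summed counts were 414 and 453 in the controls against 391 and 586 in the knockdowns, or 87.6, 81.4, 138 and 150 per 100000. The knockdown levels were higher without overlap, with a log2 fold change of 1.08 ± 0.37 (edgeR adjusted p = 0.271). That value was 0.77 with library-size scaling. USP14 was the 1 of 24 tested USP genes that passed for unequal circle use (edgeR's F test per gene, adjusted p = 0.0152). That is 4.17%, close to the 3.94% of 2336 genes tested. The 28 USP14 circles in this test include 5 seen in control replicate 1 alone, with 96 counts. With the Simes method USP14 did not pass and USP34 did. The share of all genes that pass by the Simes method is not given here. Leaving out knockdown replicate 1 or 2 left 0 USP genes, and leaving out control replicate 1 or 2 gave 12 and 11, USP14 among them (60.0% and 57.9%, against 48.9% and 50.4% of all genes).

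The USP14 circles with the acceptor at 196637 took a larger share in both knockdowns. These had 41 and 79 counts in the controls against 270 and 408 in the knockdowns, a ratio of group levels of 8.74, and made up 9.90% and 17.4% of USP14 counts in the controls but 69.1% and 69.6% in the knockdowns. The commonest was chr18:196637-204692, 701 nt in 7 exon blocks of 131, 81, 86, 115, 66, 93 and 129 nt. It had 21 and 45 counts in the controls against 173 and 257 in the knockdowns, or 6.27 ± 2.57 against 63.5 ± 3.27 per 100000. Its log2 fold change was 3.31 ± 0.37, and its edgeR adjusted p of 0.0880 was the smallest of any USP circle. The 413-nt circle ending at 199316 (6, 27, 75 and 121 counts) and the 572-nt circle ending at 203190 (2, 4, 21 and 25) start at the same acceptor and contain the first 4 and 6 of those blocks. Their log2 fold changes were 3.21 ± 0.55 and 3.48 ± 0.54. Of the 4 tested circles with this acceptor, the remaining one had few counts and was lower in both knockdowns.

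Circles that share those ends but start elsewhere in USP14 did not show this. Circles with the same ends from all other acceptors had 56, 167, 68 and 94 counts, with means of 20.9 ± 12.8 and 24.1 ± 0.0129 per 100000, and the groups overlapped. From the acceptor at 163308 they had 24, 87, 31 and 28 counts, and from 178933 they had 3, 40, 9 and 23. From 192842, the next acceptor upstream of 196637 with at least 40 counts, they had 12, 20, 23 and 36 counts, a ratio of 2.83 with no overlap. All USP14 circles with other acceptors together were lower in the knockdowns, 73.1 ± 8.31 against 44.2 ± 1.97 per 100000. Acceptors downstream of 196637 gave 38.1 of this level in control replicate 1, against 3.77 to 6.72 in the other libraries. Acceptors upstream alone were at 40.9 and 63.4 in the controls against 36.1 and 38.9 in the knockdowns.

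Some USP14 circles from the 5′ part of the gene were lower in the knockdowns. The circle chr18:163308-166819 (3512 nt as 1 block in its first listed isoform, with 3 isoforms listed) had 21 and 28 counts in the controls against 3 and 1 in the knockdowns (log2 fold change -2.95 ± 0.73, edgeR adjusted p = 0.174). Circles with the acceptor at 162983 had 34, 37, 8 and 11 counts, again without overlap. At the 3′ end, 5 tested circles that begin at or after 204564 were seen in control replicate 1 alone, with 96 counts between them. Acceptors downstream of 196637 held 43.5% of USP14 counts in that library and between 4.44% and 4.86% in the others. Without control replicate 1 the USP14 log2 fold change was 1.06, and without control replicate 2 it was 1.29.

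**Figure D3:**
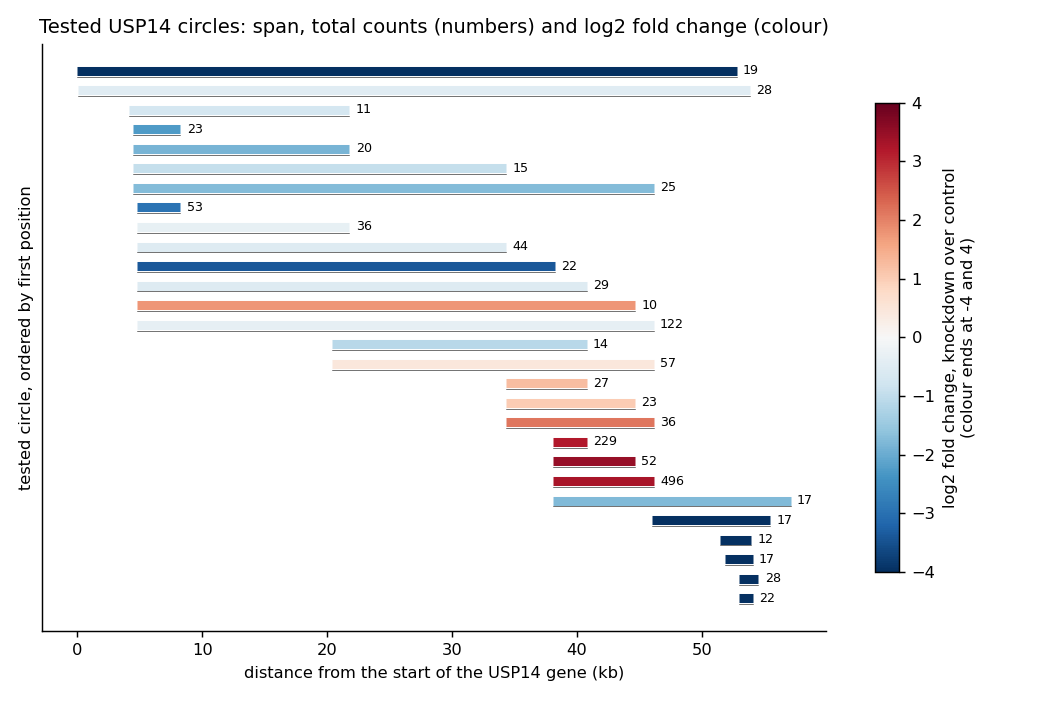
Spans of the 28 tested USP14 circles, in kb from the start of the gene, coloured by log2 fold change, knockdown over control, with total counts over the 4 libraries at the right of each bar. The 3 red bars with 229, 52 and 496 counts share the acceptor at 38.1 kb with another tested circle of few counts, which is not red. Bars with the same right ends that begin further left range from blue to light red. The 5 dark blue bars at the lower right come from control replicate 1 alone.

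USP25, a deubiquitinase of the endoplasmic reticulum's degradation pathway and of inflammatory signalling, held 19.9% of the family's counts. It had 305 and 1077 counts in the controls against 984 and 1409 in the knockdowns, or 64.6, 194, 348 and 361 per 100000. The knockdowns agreed closely and lay above both controls, but the controls differed by more than the gap from control replicate 2 to the knockdowns on a ratio scale. The log2 fold change was 1.70 ± 0.61 (edgeR adjusted p = 0.295). The USP25 sum passed in 4 of the 18 settings tried, DESeq2 among them (adjusted p = 0.0315). Without control replicate 1 its log2 fold change was 1.11, against 3.03 when control replicate 2 was left out instead. Of 36 tested USP25 circles, 35 had a positive log2 fold change and 21 (58.3%, against 23.2% of all circles) had both knockdowns above both controls.

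Within USP25 the circle with the most counts was chr21:15762891-15766141. Its first listed isoform is a single block of 3251 nt that fills the span, but the row lists 4 isoforms and the others skip part of the span, with no counts for each. It had 21 and 96 counts in the controls against 284 and 402 in the knockdowns, or 10.8 ± 9.05 against 102 ± 1.76 per 100000 (log2 fold change 3.25 ± 0.57, edgeR adjusted p = 0.109). Its acceptor at 15762891 made up 9.18% and 10.6% of USP25 counts in the controls against 29.9% and 29.8% in the knockdowns. The USP25 circles from other acceptors were also higher, by a ratio of 2.15. The test for unequal use of the USP25 circles did not pass (edgeR adjusted p = 0.451).

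**Figure D4:**
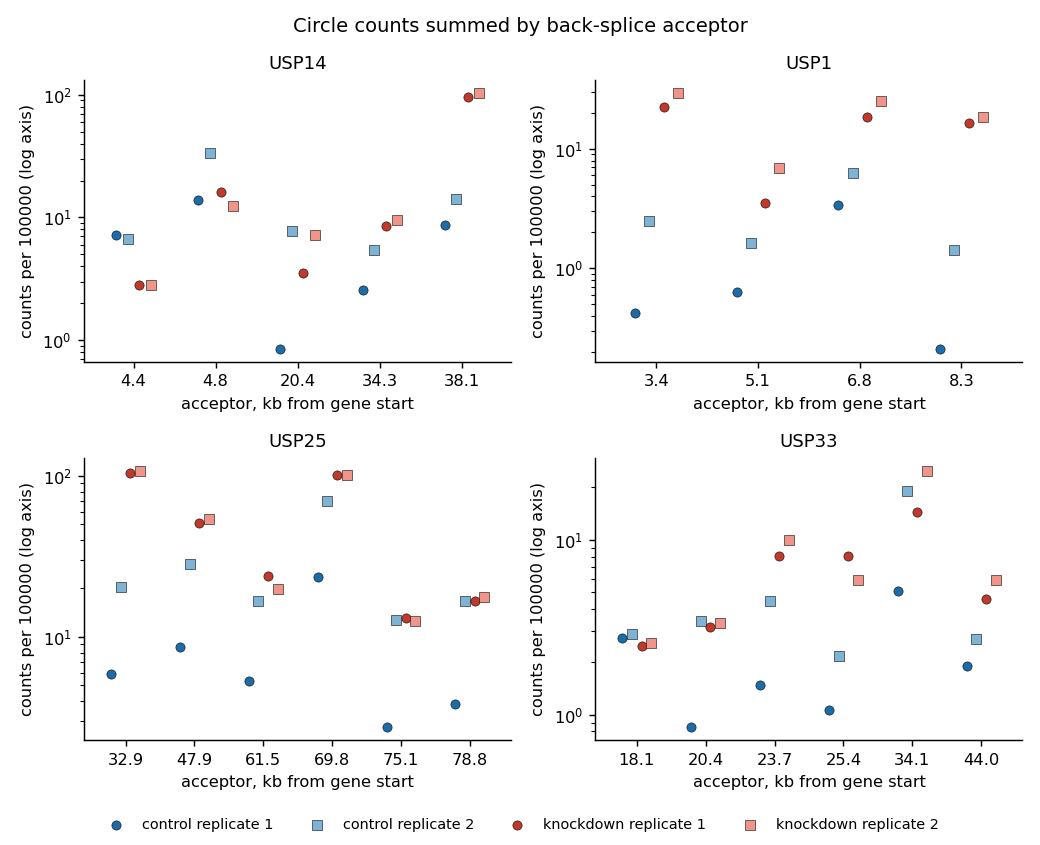
Circle counts per 100000 library counts (log axis), summed by back-splice acceptor, for acceptors with at least 40 counts (at most 6 per gene), placed by distance from the gene start in kb. In USP14 the acceptor at 38.1 kb has both knockdowns far above both controls, while the one at 4.4 kb has them below; in USP1 all 4 acceptors have the knockdowns above.

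The receptor-sorting and signalling members were mixed. USP33, which acts on receptor recycling, had 138, 262, 165 and 278 counts, or 29.2, 47.1, 58.4 and 71.2 per 100000, higher in both knockdowns (log2 fold change 1.04 ± 0.42, edgeR adjusted p = 0.331). Without control replicate 1 or 2 that value was 0.71 or 1.73. Its circles chr1:77711747-77715868 (3, 6, 13 and 23 counts) and chr1:77711747-77713281 (2, 3, 13 and 12 counts) share the donor at 77711747, and both were higher without overlap. Its commonest circle, chr1:77717867-77725762 with 18, 83, 32 and 72 counts, overlapped. USP10, a partner of the stress granule protein G3BP1, had 208 and 191 counts in the controls against 48 and 61 in the knockdowns, or 39.2 ± 6.87 against 16.3 ± 0.960 per 100000. The groups did not overlap, and the log2 fold change was -0.94 ± 0.32 (edgeR adjusted p = 0.273). With library-size scaling the USP10 value was -1.26. Its main circle chr16:84740309-84745673 (1102 nt) had 69, 57, 19 and 22 counts. USP15, which acts on SMAD proteins, had 19, 26, 22 and 28 counts, which at these depths made both knockdowns higher (log2 fold change 1.07 ± 0.45, edgeR adjusted p = 0.349). Its circle with the most counts, chr12:62348646-62393202, had 12 counts in control replicate 2 and 0 elsewhere.

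Other members with many circles gave log2 fold changes from 0.31 to 0.95 as a sum, and none passed. USP34, a deubiquitinase that stabilises axin in WNT signalling, gave 454 circles, the most of any member, with 652, 1008, 529 and 660 counts. The groups overlapped, at 160 ± 30.5 and 178 ± 12.8 per 100000. The TMM-scaled log2 fold change was 0.45 ± 0.41, or 0.21 and 0.94 without control replicate 1 and 2. With library-size scaling it was 0.16. Its commonest circle, chr2:61188419-61241794, joins 29 blocks and held only 4.84% of the gene's counts (49, 28, 28 and 33). USP9X, an X-linked member that stabilises MCL1, had 221, 383, 178 and 214 counts over 220 circles, also with overlap. Its log2 fold change was 0.31 ± 0.39, or 0.0060 and 0.90 without control replicate 1 and 2, and 0.025 with library-size scaling. No USP9X circle held more than 3.51% of its counts, the share of chrX:41123471-41153081 (6, 10, 7 and 12). USP37, which acts on cyclin A, had 118, 173, 105 and 160 counts (0.77 ± 0.35), or 25.0, 31.1, 37.1 and 41.0 per 100000, higher in both knockdowns. Its circle chr2:218488304-218510140 had 0, 10, 20 and 37 counts. That row also names the pseudogene RN7SKP38. USP53, linked to tight junctions, had 75, 292, 158 and 220 counts, or 15.9, 52.5, 55.9 and 56.3 per 100000, higher in both knockdowns. Control replicate 1 was low there, and the log2 fold change of 0.95 ± 0.58 became 0.33 without that library and 2.39 without control replicate 2. Its commonest circle, chr4:119267320-119273708, had 9, 79, 27 and 43 counts.

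USP54, a member classed as inactive in older annotation, was lower in both knockdowns. The gene lies at chr10:73497538-73625981 on the minus strand. Its 15 circles had 109 and 221 counts in the controls against 32 and 44 in the knockdowns, or 23.1, 39.7, 11.3 and 11.3 per 100000. The groups did not overlap, and the log2 fold change was -1.20 ± 0.43 (edgeR adjusted p = 0.287). When only circles seen in at least 2 libraries were summed it was -1.55 (edgeR adjusted p = 0.0361), a setting chosen after seeing the data. The USP54 sum passed in 2 of the 18 settings tried, that one included. Without control replicate 1 and 2 the log2 fold change was -1.57 and -0.46.

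The difference in USP54 lay mostly in circles with the acceptor at 73576361. The commonest, chr10:73571421-73576361, joins blocks of 93 and 850 nt and held 53.4% of the gene's counts. It had 57 and 139 counts in the controls against 10 and 11 in the knockdowns, or 18.5 ± 9.13 against 3.18 ± 0.509 per 100000. Its log2 fold change was -2.55 ± 0.45 (edgeR adjusted p = 0.112), and it passed under DESeq2 (adjusted p = 2.7e-04). The circle of the 850-nt block alone, chr10:73575512-73576361, had 31, 36, 6 and 15 counts, lower without overlap (-1.16 ± 0.49). An intron circle that extends the acceptor side to 73576621, chr10:73571421-73576621, had 5, 17, 2 and 2 counts, and its shorter partner chr10:73575512-73576621 had 3, 5, 4 and 1, with overlap. The circle chr10:73539444-73543131 had 4, 7, 2 and 3 counts, and chr10:73536269-73539593 had 3, 1, 2 and 6. USP54 circles from all other acceptors had 19, 41, 13 and 16 counts and overlapped between groups.

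**Figure D5:**
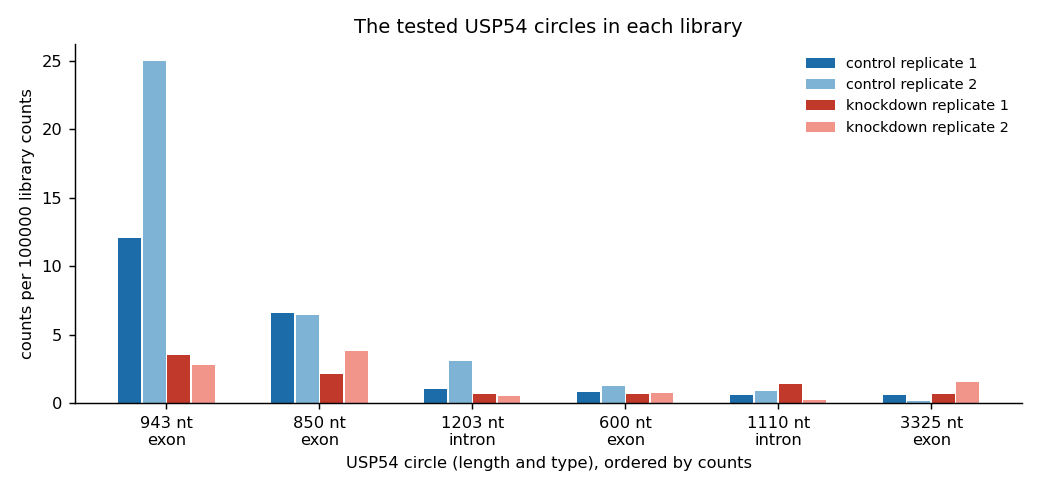
Counts per 100000 library counts of the 6 tested USP54 circles, 1 bar per library, labelled by circle length and type. The 943-nt exon circle stands at 12.1 and 25.0 in the controls and at 3.54 and 2.82 in the knockdowns, and the 4 circles with the fewest counts stay low in all libraries.

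Members with few counts gave the lowest log2 fold changes. USP4, a spliceosome-linked deubiquitinase and a partner of SART3, had 49, 19, 2 and 3 counts, and USP22, the deubiquitinase of the SAGA complex, had 36, 16, 2 and 2. Both were lower in the knockdowns without overlap, with log2 fold changes of -2.80 ± 0.77 (edgeR adjusted p = 0.196) and -2.71 ± 0.82 (0.221). Without control replicate 1 these were -1.92 and -1.98, and without control replicate 2 they were -3.18 and -3.05. The USP4 circle with the most counts, the intron circle chr3:49303554-49305002, had 17 counts in control replicate 1 and 0 elsewhere, and without it the USP4 counts were 32, 19, 2 and 3. The commonest USP22 circle, chr17:21017942-21028674, had 5, 6, 0 and 1. USP36, a nucleolar member, had 22, 20, 5 and 6 counts (-0.99 ± 0.65, edgeR adjusted p = 0.502), of which chr17:78812860-78820012 held 11, 11, 3 and 3. Of the 6 tested genes on the list of histone deubiquitinases 5 had log2 fold changes below 0, and none passed.

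Circle by circle, 0 of 297 tested USP circles passed in edgeR's quasi-likelihood test, as did 0 of all 21576 (0.0%). At an unadjusted p under 0.05, 35 USP circles were higher (11.8%, against 9.29% of all circles) and 9 lower (3.03%, against 4.26%). DESeq2 called 19 USP circles (6.40%, against 5.03% of all circles) and voom with group weights 4 (1.35%, against 1.37%). The knockdowns lay above both controls for 89 USP circles (30.0%, against 23.2%) and below both for 67 (22.6%, against 22.9%). The median log2 fold change was 0.00 over the USP circles and -0.41 over all circles tested. Sums by acceptor gave 0 of 230 USP sites past the threshold (0.0% of 16399 sites in all), with 38 at an unadjusted p under 0.05 (16.5%, against 13.7% of all sites). Sums by donor gave 0 of 229 (0.0% of 17519), with 36 at that level (15.7%, against 14.1%). Among single circles outside USP1, USP14 and USP25, chr7:6111125-6144196 of USP42, a deubiquitinase of p53, had 11 and 26 counts in the controls against 1 and 1 in the knockdowns (log2 fold change -3.45 ± 0.77, edgeR adjusted p = 0.155), while the USP42 sum gave 0.06 ± 0.33.

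USP circles differed from the table as a whole in structure, as a description. Exon circles held 91.5% of USP counts against 86.3% of all counts of circles with a gene, and 32.8% of USP exon counts came from circles of at least 12 blocks, against 16.5%. The median USP exon circle had 9 blocks against 6. Median lengths were close, 1412 nt against 1344 nt. Splice ends of the AG-GT kind held 96.5% of USP counts against 93.7%.

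Genes that work beside the USPs gave 0 calls. Of 26 tested deubiquitinases of other families none passed in edgeR's quasi-likelihood test, and 5 had an unadjusted p under 0.05. Of these, 3 were higher (11.5%, against 7.58% of all host genes) and 2 lower (7.69%, against 6.19%). The list holds some relatives that are not known to cut ubiquitin: USPL1, a SUMO protease (8, 33, 33 and 50 counts), and PSMD7, a structural proteasome subunit (8, 19, 0 and 0), had the smallest p among those higher and those lower. None of 20 tested USP partner genes passed, with 2 at an unadjusted p under 0.05, both lower (10.0%, against 6.19% of all host genes). One of these was G3BP2, a stress granule protein, with 86, 44, 8 and 11 counts. None of 27 ubiquitin activating and conjugating enzymes passed, with 3 higher and 3 lower at that level (11.1% each, against 7.58% and 6.19% of all host genes), among them UBE2E2 (51, 52, 4 and 9 counts) and UBE2J1 (18, 11, 21 and 39). Among the SENP proteases, which act on SUMO and NEDD8, 0 of 5 passed in edgeR's test and 2 had an unadjusted p under 0.05, both higher (40.0%, against 7.58%). SENP6 had 405 and 1932 counts in the controls against 6410 and 9679 in the knockdowns (log2 fold change 3.69 ± 0.83, edgeR adjusted p = 0.128).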

How the data were processed

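Circular RNA was measured in 4 nanopore libraries, 2 per group, grouped by their titles. The authors deposited raw counts per back-splice position, not normalized, with the circle's length, type and genes. The submitters' processing notes name DESeq2 and the build GRCh38.p14; the caller's version, the aligner and the filters are not given in the sources used here. Amplified copies carry no molecular identifiers, so counting error is a lower limit. That the replicates are separate cultures rests on the labels, so p-values measure the spread between these libraries.

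Every row that was not antisense counted towards each gene it names, and library sizes were totals of all rows. Genes, circles and sites with at least 10 counts over the 4 libraries were tested with edgeR 4.0.16 (quasi-likelihood, TMM, default dispersion method, R 4.3.3) and Benjamini-Hochberg adjustment over all features of the table. The default dispersion method was kept from earlier work on these data. Standard errors were derived from the F statistic. Circle use was tested with diffSpliceDGE. Levels are counts per 100000 library counts, computed here without TMM factors, which the log2 fold changes do use. The fits were tested on simulated data with large planted changes. How well they find smaller changes was not tested. DESeq2 1.42.0 and limma 3.58.1 (voom) were alternatives.

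Named were the 12 USP genes with the most counts, those past the threshold, the 5 higher and 5 lower with the smallest p and no overlap between groups, and USP54; circles were named by the same rule, with the commonest of each named gene and the tested ones of USP54. From other lists the 2 with the smallest p in each direction could be named. Other members were named after their values were seen. The members and lists were chosen with earlier results of these data known. No circle or flanking sequence was used here, and antisense rows naming a USP gene (136 rows, 365 counts) were left out.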

Additional observations from a re-analysis of the deposited data

How the results depend on the processing

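Of 34 USP genes, 1 passed as reported; the count was 2 with DESeq2 (5.88%, against 2.20% of all host genes), 2 with no count filter (4.88%, 2.49%), 4 with voom (11.8%, 4.81%), 0 with the newer dispersion method and 2 with circles seen in at least 2 libraries (6.25%, 5.88%), and ran from 0 to 15 when a library was left out. Of the USP circles 0 passed; the count was 19 with DESeq2 (6.40%, against 5.03% of all circles), 8 with no count filter (0.373%, 0.248%), 19 when 2 libraries had to hold 5 counts each (10.3%, 12.1%), 10 with at least 40 counts (13.7%, 11.4%), 4 with voom (1.35%, 1.37%), 8 with exon circles alone (2.93%, 1.70%) and from 0 to 89 with a library left out. Leaving out a knockdown library gave 0 calls at both levels, and leaving out control replicate 1 or 2 gave 10 and 15 genes (31.2% and 45.5%, against 25.1% and 36.3%) and 56 and 89 circles (23.0% and 43.6%, against 28.2% and 43.4%), where the lone library is assumed to vary like the other group. Unequal circle use was called for 1 gene, for 3 with at least 40 counts (25.0%, against 17.5% of all genes tested) and for 0 to 12 with a library left out. The replicate block gave 1 USP gene (2.94%, against 3.58%), 30 circles (10.1%, 7.51%) and 7 genes with unequal use (29.2%, 23.2%); same-numbered libraries share a number by label alone, and their deviations correlated at 0.0784 over 4764 host genes. The difference in USP share ran from 0.150 to 0.422 percentage points with a library left out, and that in circles at equal depth from -28.9 to 38.8. The median log2 fold change of USP genes was -0.42 with library-size scaling, 0.069 with rows naming 1 gene, and from -0.16 to 0.30 with a library left out. With a library left out, log2 fold changes turned sign for USP45 (-0.36 to 0.48; 0.10 without knockdown replicate 1), USP3 (-0.37 to 0.26), USP48 (-0.83 to 0.25), and the commonest circles of USP34 (-0.34 to 1.02) and USP3 (-0.67 to 0.12), each without control replicate 2, and for that of USP53 without control replicate 1 (-0.29 to 2.27). The USP54 circle chr10:73575512-73576621 turned with no count filter (-0.16), the newer dispersion method (-0.068), voom (-0.42), the replicate block (-0.18) and a library left out (-0.085 to 0.92). The cause was not tested. Sums by acceptor or donor and the restriction to circles seen in at least 2 libraries were chosen after seeing the data.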
